A study of Rattus norvegicus and Ovis aries with 113 samples.

Results

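The genes described here encode SNARE proteins and the factors that load, hold, fire and recycle them. The 38 members were taken by upper-cased symbol from a fixed list, and all 38 were found once among the 31304 genes of the sheep table and once among the 38675 genes of the rat table. They were divided by textbook knowledge into 10 neuronal members (SNAP25, STX1A, VAMP1, VAMP2, NAPB, CPLX1, CPLX2, CPLX3, UNC13A and RIMS1) and 28 broadly expressed members. The study sequenced RNA from 10 dissected brain regions and sperm of 5 post-pubertal male sheep, from whole brain and from the seminal fluid (the sperm samples) of 15 post-pubertal male Sprague Dawley rats, and from whole brain and ovary of 14 female Sprague Dawley rats. No animal received a treatment, no gene was altered, and the age of the females was not given in the sources used here. Sheep libraries number 5 for each of basal ganglia, cerebellum, entorhinal, frontal, motor, posterior parietal, prefrontal and visual cortex, hippocampus, pons and sperm. By the labels each library belongs to 1 animal, and the 50 sheep brain libraries come from 5 sheep with 10 regions each. Sheep RNA was extracted with TRIzol and rat RNA with a Zymo kit, and the library kits (Kapa for sheep, Watchmaker for rat) differed as well.

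A SNARE complex is a bundle of helices that zips a vesicle onto its target membrane. A VAMP on the vesicle pairs with a syntaxin and a SNAP25-type protein on the target, Sec1/Munc18 proteins such as STXBP2 guide the syntaxin, and NSF with its SNAP adaptors pulls spent complexes apart. At synapses complexins clamp and trigger the assembled complex, and UNC13 and RIM proteins act in priming. In sperm the SNARE machinery carries out the exocytosis of the acrosome, the vesicle of enzymes over the sperm head that opens at fertilisation.

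Depth and composition set limits on the comparisons. Library totals were 46.7 M to 72.4 M counts in sheep brain and 13.7 M to 65.1 M counts in sheep sperm. In rats they were 38.2 M to 102 M counts in male brain, 45.2 M to 119 M in female brain, 50.5 M to 60.3 M in ovary and 13.7 M to 65.1 M in sperm. In sheep sperm, 4 entries with placeholder names held 22.4% to 85.2% of the counts, and a ribosomal RNA entry held 29.9% and 28.4% of the counts of the rat brain libraries of animals 1 and 4. Despite their totals of 119 M and 102 M, those libraries held only 26670 and 49706 counts of Snap25. Every other rat brain library held 119907 or more. Levels below are CPM, a gene's counts scaled to a common library total, after adjustment by trimmed means (TMM), and a list level is the mean of log2(CPM + 1) over its genes or the sum of their CPM. TMM factors were 0.114 to 0.305 in sheep sperm and 0.927 to 1.42 in sheep brain, so the adjustment raised sheep sperm levels against brain. The labelled tissues carried their own markers: each of the 10 late spermatid genes passed as higher than brain in both sperm groups, and ovary exceeded brain for each of 5 granulosa, 5 theca or luteal, and 6 oocyte genes. Rat sperm libraries differed in their acrosome genes, however, which were low in most of them, as given further below. The sheep sperm libraries also held RNA of other cells. All 7 neutrophil genes tested were called higher there, with a summed level of 13846 to 159187 CPM against 0.71 to 8.55 CPM in brain and no gene at 0. All 8 squamous epithelium genes tested were called higher as well, with a sum of 8977 to 169444 CPM against 0.94 to 4.62 CPM, again with none at 0. In rat sperm the neutrophil genes summed to 5.08 to 74.3 CPM and the squamous genes to 8.51 to 146 CPM, with SPRR3 and KRT6A at 0. The part of these cells in the results was not tested.

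Against brain, the group levels of the neuronal members were lower in sperm and ovary, least firmly for CPLX3 in sheep sperm, and the broadly expressed members split. A member was called when its edgeR adjusted p, over all genes tested, was below 0.05 and its log2 fold change was at least 1 in size. In sheep sperm 11 members were called higher and 19 lower than the mean of the 10 regions, beside 33.1% and 41.1% of all genes. In rat sperm 4 members were called higher and 17 lower than male brain, beside 27.7% and 31.5% of all genes. In ovary 5 members were called higher and 19 lower than female brain, against 27.7% and 29.2% of all genes. All 10 neuronal members were called lower in all 3 comparisons, whereas the 28 broadly expressed members gave 11 higher and 9 lower for sheep sperm, 4 and 7 for rat sperm, and 5 and 9 for ovary. The CPLX3 call in sheep sperm (-1.12) was lost with RLE, upper quartile scaling and DESeq2 and on leaving out any of 4 of the 5 sheep, as given below. With the 10 regions of each sheep summed, so that each animal counts once per tissue, 8 members were called higher and 20 lower in sheep sperm, with STX4 (1.33), STX8 (1.34) and NAPA (0.97) lost and STXBP3 (-1.08) added. The median log2 fold change of the neuronal members was -5.42 for sheep sperm, -6.93 for rat sperm and -6.01 for ovary. That of the broadly expressed members was -0.53, -0.16 and -0.19, and that of all genes tested was -0.42, -0.03 and 0.02. In such whole-tissue RNA, fewer cells of a type and less RNA per cell cannot be told apart. The 9 neuron marker genes, none of them a member, summed to 927 to 9007 CPM in sheep brain and 10.5 to 152 CPM in sheep sperm, and to 0.87 to 15.8 CPM in rat sperm and 34.9 to 85.6 CPM in ovary. Their part in the fall of the neuronal members was not tested.

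**Figure D1:**
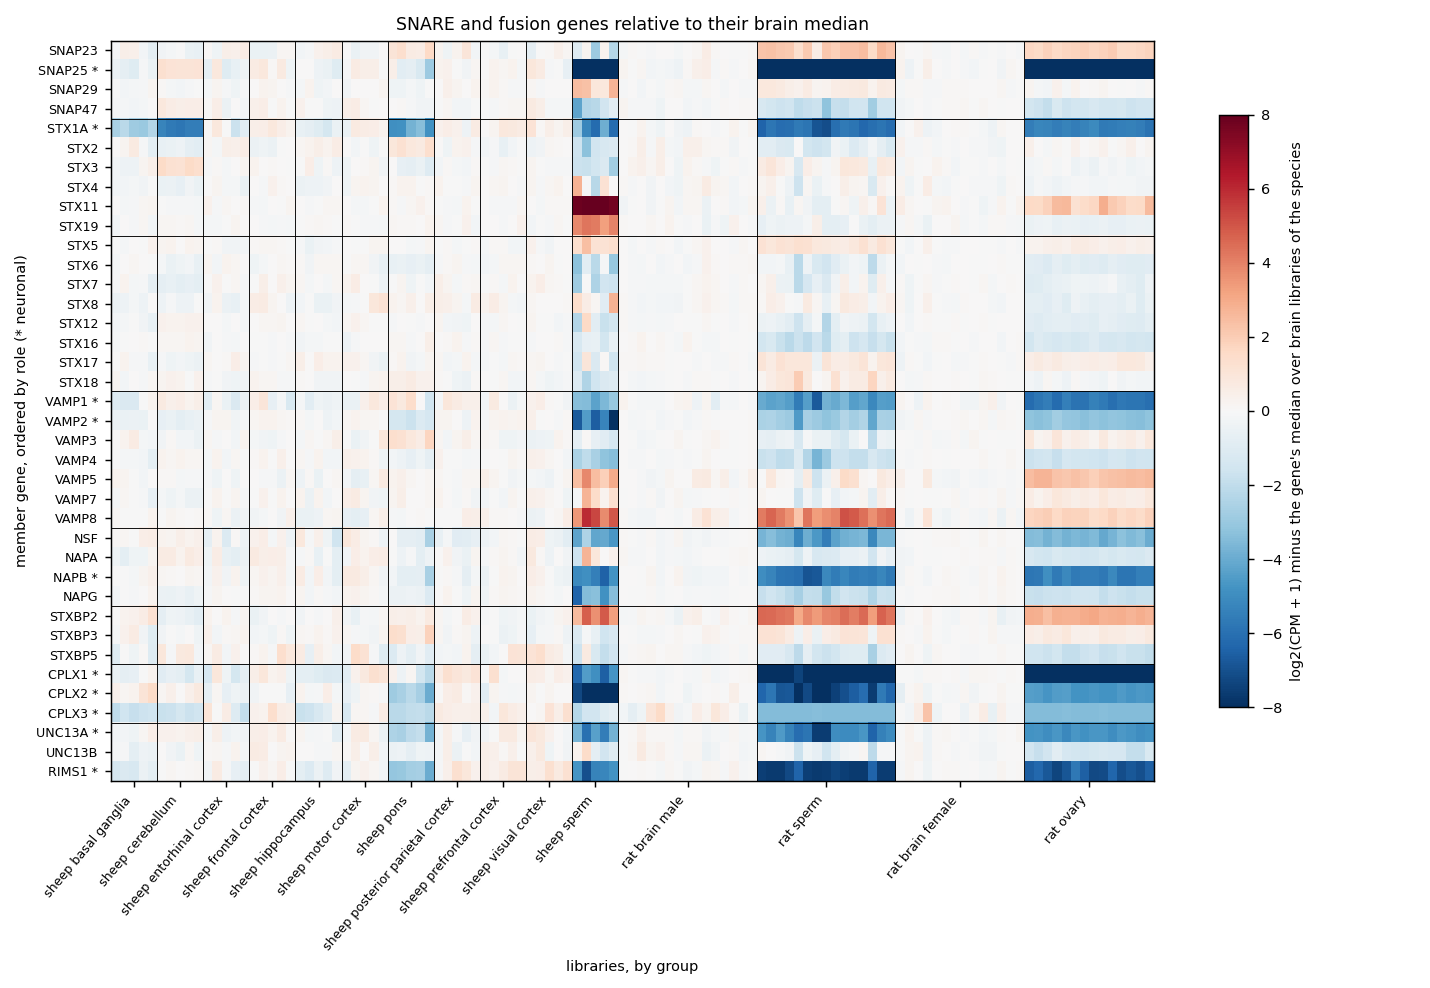
Each of the 38 members (rows, by role, neuronal members starred) in each of 113 libraries (columns, by group), as log2(CPM + 1) minus the median of that gene over the brain libraries of its species. The starred rows are blue in sheep sperm, rat sperm and rat ovary, except that CPLX3 is almost white in sheep sperm, VAMP8 and STXBP2 are red in all 3, and STX11 is the darkest red row in sheep sperm.

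Beyond the 10 neuronal members, 4 broadly expressed ones were also called lower in all 3 comparisons: SNAP47, VAMP4, NSF and NAPG. VAMP8 and STXBP2 were the 2 members called higher in all 3. The groups did not overlap for 21 members with sheep sperm, 22 with rat sperm and 30 with ovary, where 37.3%, 33.2% and 53.9% of all genes tested did not overlap. The sheep and rat brains are separate animals, and so are the male and female rats, so these 3 comparisons share no sample.

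The rat members could be placed on the assembly that the rat reads were aligned to, GRCr8, and the 250 bases before the start of 35 of the 38 were found among the RefSeq promoters. The 4 shown here belong to 3 neuronal members that were low in all 3 comparisons and to Stx19, which rose in the sperm of sheep and fell in that of rats. Each is written 5′ to 3′ on the strand of its gene, and capitals mark the motifs searched on both strands: TATAAA (the TATA box), CCAAT (the box bound by NF-Y), GGGCGG (bound by Sp1), TGACGTCA (the cyclic AMP response element), CACGTG (an E-box) and TTCAGCACC (part of the RE1 element bound by the neuronal repressor REST).
Cplx1, chr14:1328823-1329072, plus strand: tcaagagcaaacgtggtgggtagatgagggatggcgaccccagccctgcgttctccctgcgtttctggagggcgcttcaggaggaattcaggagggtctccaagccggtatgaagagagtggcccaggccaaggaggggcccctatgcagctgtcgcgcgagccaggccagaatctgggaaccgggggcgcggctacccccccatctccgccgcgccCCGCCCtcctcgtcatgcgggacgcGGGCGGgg
Napb, chr3:156632419-156632668, minus strand: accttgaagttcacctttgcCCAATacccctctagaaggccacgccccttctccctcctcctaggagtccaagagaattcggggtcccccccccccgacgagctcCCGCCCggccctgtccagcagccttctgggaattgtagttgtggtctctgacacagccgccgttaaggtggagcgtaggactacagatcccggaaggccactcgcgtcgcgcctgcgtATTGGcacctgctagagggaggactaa
Vamp1, chr4:159698644-159698893, plus strand: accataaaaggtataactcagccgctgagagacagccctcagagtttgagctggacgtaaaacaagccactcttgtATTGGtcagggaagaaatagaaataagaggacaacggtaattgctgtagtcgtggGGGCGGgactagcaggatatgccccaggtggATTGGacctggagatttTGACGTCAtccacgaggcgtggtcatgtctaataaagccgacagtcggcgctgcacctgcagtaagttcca
Stx19, chr11:13619186-13619435, plus strand: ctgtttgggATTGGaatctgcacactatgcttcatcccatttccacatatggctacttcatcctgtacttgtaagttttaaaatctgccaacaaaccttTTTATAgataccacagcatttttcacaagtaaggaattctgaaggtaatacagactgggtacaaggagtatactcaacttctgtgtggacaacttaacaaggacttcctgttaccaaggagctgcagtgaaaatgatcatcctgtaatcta

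The Stx19 window stood apart in composition, with 38.8% G and C and no CG step, whereas Cplx1 had 68.0%, Napb 61.2% and Vamp1 50.4%. The motif GGGCGG, in either orientation, was found in 8 of 9 neuronal windows and 19 of 27 windows of the broadly expressed members (Unc13b has 2), against 30.5% of all 33469 RefSeq windows. CCAAT was found in 3 neuronal and 10 broadly expressed windows against 34.0% of all windows, and TATAAA in none and 2 against 12.9%. TGACGTCA was found in 1 neuronal window, that of Vamp1, and 1 of the others against 1.59%, and CACGTG in 1 and 5 against 5.59%. TTCAGCACC was in no member window and in 0.305% of all windows. All windows include those of non-coding genes, and median G and C content was 61.2% in neuronal, 61.6% in broadly expressed and 51.2% in all windows, so these shares differ in base composition as well. A match is only a run of letters.

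The SNAP25-type proteins supply helices to the complex from the target membrane, and its 4 members moved in different directions. SNAP25 ran from 115 to 2155 CPM with a median of 886 in the 50 sheep brain libraries, and its sperm values were 0, 0.162, 0.658, 2.11 and 1.46 CPM in sheep 687, 688, 690, 694 and 699. Every sperm library was far below every brain library (log2 fold change -10.01 ± 0.58, where ± gives the SE; edgeR adjusted p = 1.2e-21). In rats, Snap25 ran from 2011 to 3908 CPM with a median of 2736 in male brain and from 0 to 0.207 CPM with a median of 0.0192 in sperm. The difference was -15.82 ± 0.50 (adjusted p = 1.15e-22). In ovary it ran from 0.175 to 3.06 CPM with a median of 0.715, against 2039 to 3755 CPM in female brain, a difference of -11.34 ± 0.45 (adjusted p = 1.04e-20). None of these groups overlapped. Snap25 lies on chromosome 3 from 144494579 to 144576449 and shares that span with 2 placeholder genes.

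SNAP23, the SNAP25 relative used by most secretory cells, went the other way in rats. It ran from 12.0 to 20.8 CPM in male brain, with a median of 13.7, and from 21.0 to 86.0 CPM in sperm, with a median of 64.7, so no libraries overlapped (log2 fold change 2.15 ± 0.14, adjusted p = 2.82e-15). In ovary it ran from 40.6 to 59.1 CPM, with a median of 46.7, above the 12.1 to 16.2 CPM of female brain (1.82 ± 0.06, adjusted p = 2.23e-23). In sheep sperm its values were 5.10, 13.2, 0.658, 13.9 and 1.57 CPM, which overlap the 6.19 to 36.2 CPM of brain, and the difference of -0.79 ± 0.30 was not called, though it was called without sheep 688 (-1.16) or 694 (-1.10). SNAP29, which serves autophagy and other inner routes, was called higher in sheep sperm, at 35.0 to 126 CPM against 14.3 to 24.8 CPM in brain (2.13 ± 0.12), and differed by 0.71 in rat sperm and 0.05 in ovary, neither called. Before the TMM adjustment its sheep sperm values were 12.3, 24.7, 7.96, 10.7 and 23.7 CPM, against 15.9 to 29.4 CPM in brain. SNAP47 was called lower in all 3, by -2.17, -1.82 and -1.59.

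Of the syntaxins of the cell surface, the neuronal STX1A was lower in all 3 comparisons (sheep sperm -3.36 ± 0.48, rat sperm -6.92 ± 0.33, ovary -5.95 ± 0.12). Its sheep sperm values of 8.59, 0.888, 0, 3.66 and 0 CPM overlap the brain range of 0.256 to 152 CPM, and sheep 687 lay above every cerebellum and pons library. STX2 and STX3 were called lower in sheep sperm (-1.86 and -1.85) and in neither rat tissue, but STX2 in rat sperm (-0.93) was called lower with RLE and DESeq2 (-1.14 in both) and with the replicate block (-1.03). STX2 is also called epimorphin, and STX3 serves apical membranes and ribbon synapses. STX4, which acts in insulin-responsive secretion of GLUT4 vesicles, was called higher in sheep sperm at 1.34 ± 0.24, but sheep 687 alone was high (50.5 CPM, against 0.658 to 15.6 in the other 4). Without sheep 687 the difference was 0.23.

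STX11, a syntaxin best known from cytotoxic lymphocytes and other blood cells, had the largest rise of any member. Sheep sperm held 267, 523, 303, 1880 and 242 CPM in animals 687, 688, 690, 694 and 699, and brain held 0.0306 to 0.475 CPM with a median of 0.167. The groups were far apart, with a log2 fold change of 11.80 ± 0.27 (adjusted p = 4.28e-39). The neutrophil list level of the same sperm libraries was 6.67, 9.41, 8.08, 9.93 and 6.26, so sheep 694 was highest and 699 lowest in both, and the part of those cells in STX11 was not tested. Rat sperm ran from 0 to 2.62 CPM with a median of 0.656, over the same range as male brain (0.236 to 1.01 CPM), and the difference of 0.15 ± 0.45 was not called. Ovary ran from 3.06 to 12.1 CPM, above the 0.350 to 1.59 CPM of female brain (2.84 ± 0.22).

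STX19, a syntaxin without a membrane anchor found in epithelia, was the 1 member called in opposite directions in the 2 species. Sheep sperm held 17.3, 23.3, 21.7, 11.2 and 18.6 CPM and brain 0.0897 to 0.632 CPM, with no overlap (6.10 ± 0.20, adjusted p = 2.15e-32). The squamous list level of these sperm libraries was 7.03, 10.6, 8.55, 7.72 and 8.94, and sheep 688 was highest in both; its part was not tested. In rats all levels were low: 0 to 1.30 CPM in sperm against 0.157 to 1.12 CPM in male brain (-1.20 ± 0.48, adjusted p = 0.0252), and 0.0708 to 0.356 CPM in ovary against 0.166 to 1.00 CPM in female brain (-1.87 ± 0.22). The rat sperm call was lost with upper quartile scaling (-1.07). The rat gene lies on chromosome 11 from 13619436 to 13624634 inside the span of Arl13b, and whether reads were assigned by strand was not given in the sources used here.

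**Figure D2:**
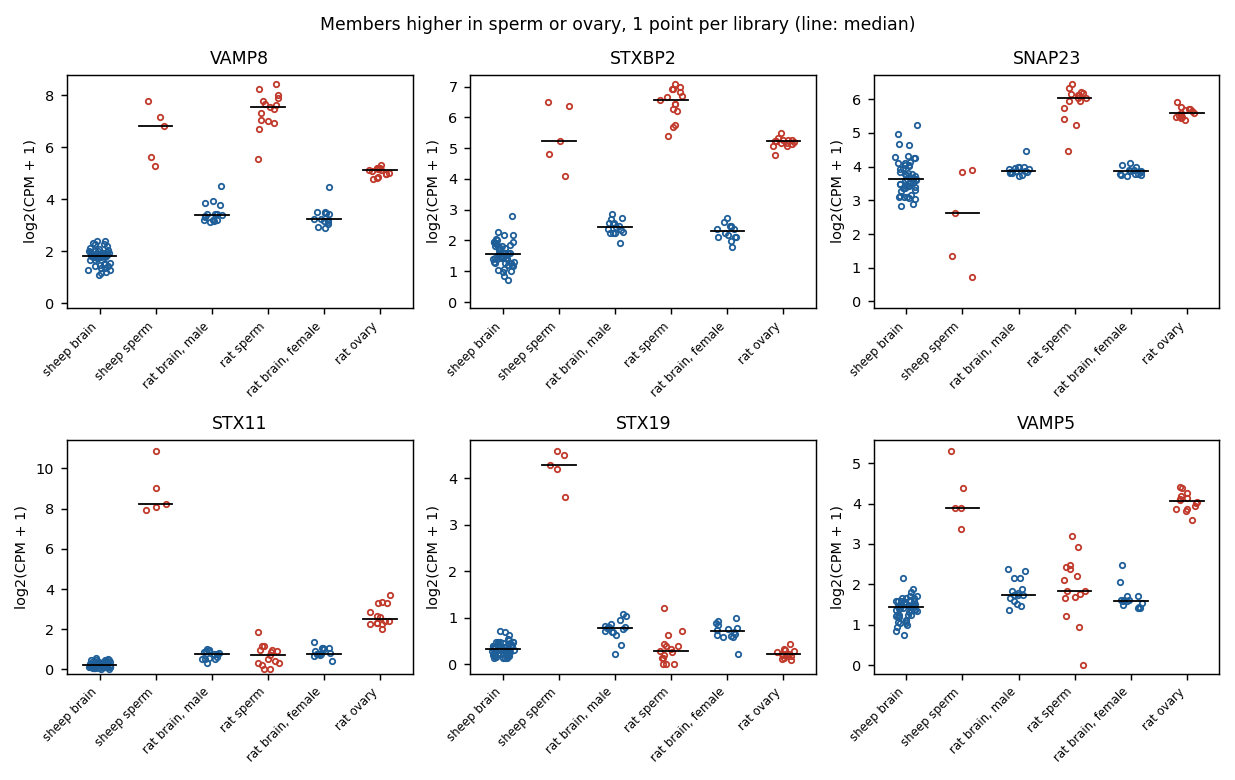
log2(CPM + 1) of 6 members in sheep brain (50 libraries), sheep sperm (5), male rat brain (15), rat sperm (15), female rat brain (14) and rat ovary (14), 1 point per library with a line at the median. VAMP8 and STXBP2 are raised in all 3 reproductive groups, SNAP23 in the 2 rat groups, VAMP5 in sheep sperm and ovary, and STX11 and STX19 most of all in sheep sperm.

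The 8 syntaxins of endosomes, Golgi and endoplasmic reticulum (ER) moved less. STX5, the syntaxin of ER-to-Golgi traffic, was called higher in both sperm groups. Sheep sperm held 37.6, 79.7, 32.6, 32.4 and 36.5 CPM against 9.58 to 18.3 CPM in brain (1.65 ± 0.11, adjusted p = 1.3e-19). Rat sperm ran from 46.9 to 74.7 CPM with a median of 58.9, against 25.8 to 39.3 CPM in male brain (1.03 ± 0.08, adjusted p = 8.8e-13). Neither pair of groups overlapped, but the rat value fell under the fold threshold with relative log scaling (RLE) and in DESeq2 (0.79 in both). Before the TMM adjustment the sheep sperm values of STX5 were 4.30, 20.1, 7.23, 9.88 and 6.85 CPM, against 11.2 to 24.7 CPM in brain. In ovary the difference was 0.48 and not called.

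STX6, STX7 and STX18 were called lower in sheep sperm (-1.30, -1.38 and -1.48) and in neither rat comparison, calls lost with upper quartile factors (-0.60, -0.76 and -0.67), and STX8 was called higher there (1.32 ± 0.22), though 0.53 without sheep 699, whose 143 CPM stood above 10.3 to 54.0 in the others. STX16, a syntaxin of the trans-Golgi network, was called lower in rat sperm (-1.56) and ovary (-1.30) and was -0.89 in sheep sperm, where it was called without the low-count filter (-1.04). STX12 and STX17, of endosomes and autophagosomes, were called in none of the 3. For STX12 the sheep sperm values were 11.7, 193, 35.5, 18.1 and 22.2 CPM, and without the high library of sheep 688 the difference moved from -0.17 to -1.52 and was called. Sheep 688 also had the smallest share of counts in the placeholder entries, 22.4%, and the highest squamous list level.

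Among the VAMPs, the vesicle partners, the 2 neuronal ones were lower in all 3 comparisons. VAMP2, the main vesicle SNARE of synapses, held 4.16, 23.0, 4.61, 13.1 and 1.01 CPM in sheep sperm and 168 to 705 CPM in brain (-5.67 ± 0.35, adjusted p = 8.14e-21). In rat sperm it was 38.7 to 180 CPM against 807 to 1008 CPM in male brain (-2.75 ± 0.15), and in ovary 86.4 to 135 CPM against 764 to 1058 CPM (-3.23 ± 0.07). The lowest rat library outside brain thus still held 38.7 CPM. VAMP1 was -3.70, -4.36 and -6.06. VAMP4, of the trans-Golgi network, was -2.96, -1.81 and -1.60, and VAMP3, the broadly expressed relative of VAMP2, was -0.77, -0.66 and 0.60, not called, except in sheep sperm without sheep 688 (-1.03).

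VAMP8, known from endosomes and from regulated exocytosis in exocrine and blood cells and in sperm, was higher in all 3 comparisons. Sheep sperm held 37.8, 221, 143, 48.4 and 111 CPM against 1.09 to 4.29 CPM in brain (5.48 ± 0.17, adjusted p = 3.08e-33). Rat sperm ran from 46.3 to 345 CPM with a median of 186, against 7.66 to 22.0 CPM in male brain (4.18 ± 0.22, adjusted p = 4.4e-17). Ovary ran from 26.2 to 39.1 CPM with a median of 33.5, against 6.48 to 21.4 CPM in female brain (1.80 ± 0.13). No groups overlapped. VAMP5, a VAMP of muscle and other non-neuronal cells, was called higher in sheep sperm, at 9.31 to 38.6 CPM against 0.674 to 3.44 CPM (adjusted p = 6.3e-24), and in ovary, at 11.0 to 20.2 CPM with a median of 15.6 against 1.67 to 4.57 CPM (2.84 ± 0.13, adjusted p = 2.67e-19). In rat sperm it ran from 0 to 8.23 CPM and was not called (0.37 ± 0.37). Before the TMM adjustment VAMP5 lay inside the brain range in the sperm of sheep 687, 690 and 694. Those libraries held 102, 42 and 84 counts in 65.1 M, 13.7 M and 29.5 M, and the motor cortex of sheep 699 held 174 counts. VAMP7, of late endosomes, was called higher in sheep sperm, at 19.3, 150, 60.9, 26.7 and 53.0 CPM against 13.1 to 35.0 CPM in brain, but its log2 fold change was 0.93, under the fold threshold, without sheep 688, and it was not called in rats.

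The proteins that take SNARE complexes apart were mostly lower. NSF, the ATPase that does the work, held 16.9, 60.8, 17.8, 19.1 and 12.5 CPM in sheep sperm against 55 to 621 CPM in brain (-3.67 ± 0.37), with the 1 overlap due to sheep 688 and the pons of sheep 699. In rats it was 12.9 to 59.2 CPM in sperm against 520 to 724 CPM (-3.96 ± 0.18) and 35.5 to 63.9 CPM in ovary against 605 to 736 CPM (-3.68 ± 0.08). Of its adaptors, the neuronal NAPB was -5.47, -5.72 and -5.75 in the 3 comparisons and the broadly expressed NAPG was -4.13, -1.88 and -1.81. NAPA, the ubiquitous alpha-SNAP, was called lower in ovary (-1.36 ± 0.05) and was -0.68 in rat sperm. Its call as higher in sheep sperm (1.12 ± 0.24) rested on sheep 688, at 552 CPM beside 26.2 to 159 in the others, and was 0.21 without that animal.

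STXBP2, the Munc18 protein of cytotoxic, mast and epithelial cells, was with VAMP8 the other member raised throughout. Its sheep sperm values were 16.2, 81.3, 36.8, 89.2 and 27.2 CPM against 0.632 to 5.90 CPM in brain (4.67 ± 0.16, adjusted p = 8.59e-31). Rat sperm ran from 40.7 to 134 CPM with a median of 92.8, against 2.77 to 6.20 CPM in male brain (4.39 ± 0.16, adjusted p = 6.47e-21). Ovary ran from 26.5 to 43.8 CPM with a median of 36.2, against 2.47 to 5.68 CPM in female brain (3.17 ± 0.10, adjusted p = 2.02e-23). After the TMM adjustment no library of a reproductive tissue overlapped a brain library. Before it, the sperm libraries of sheep 687 (121 counts in 65.1 M) and 699 (242 counts in 47.4 M) lay inside the brain range. The basal ganglia of sheep 699 held 289 counts of STXBP2. In rat sperm the STXBP2 rise stood beside neutrophil marker sums of at most 74.3 CPM over 8 genes, against 13846 CPM or more over 7 genes in sheep sperm. The sums cover unlike gene sets in different species, and the part of neutrophils in the STXBP2 rise was not tested. STXBP3 was not called in any of the 3 (-0.98, 0.78 and 0.63), but was called lower in sheep sperm without sheep 688 (-1.27) or 690 (-1.04). STXBP5, or tomosyn, an inhibitor of complex assembly, was called lower in rat sperm (-1.17) and ovary (-1.74) and was -0.95 in sheep sperm, or -1.85 and called without sheep 688.

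Complexins clamp and trigger the assembled complex at synapses, and all 3 were lower outside brain, to different depths. CPLX2 held 5.23, 0.727, 0.987, 0.887 and 0.898 CPM in sheep sperm against 59.7 to 2753 CPM in brain (-8.93 ± 0.43, adjusted p = 5.53e-25), with sheep 687 above the other 4. In rat sperm it was 0 to 17.0 CPM with a median of 6.91 against 742 to 1285 CPM (-6.94 ± 0.42), and in ovary it stayed at 32.6 to 43.5 CPM in every library against 567 to 1117 CPM (-4.60 ± 0.09). CPLX1 was 0.403, 4.04, 2.63, 0.222 and 3.14 CPM in sheep sperm against 23.9 to 274 CPM in brain (-5.70 ± 0.50, adjusted p = 6.95e-15). It was 0 to 1.89 CPM with a median of 0.069 in rat sperm against 416 to 543 CPM (-10.44 ± 0.67, adjusted p = 4.58e-15). In ovary it was 0.136 to 0.693 CPM with a median of 0.366 against 434 to 547 CPM (-10.37 ± 0.17, adjusted p = 6.16e-30). Thus the ovary kept more of its CPLX2 than of its CPLX1 signal, relative to brain.

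CPLX3, a complexin of retina and of some cortical neurons, was near the limit of detection in the reproductive tissues of the rat. A single count fell in the 15 rat sperm libraries against 11347 in male brain, a brain-to-sperm ratio with a 95% counting interval of 1899 to 418008 (exact Poisson, counting error only). The brain range was 5.63 to 30.9 CPM, with a median of 10.6, and the highest sperm library was at 0.0289 CPM. In ovary the highest library was at 0.0475 CPM against 6.43 to 52.9 CPM in female brain (-10.44 ± 0.47, adjusted p = 3.77e-19). In sheep sperm it was 0, 0.646, 0.658, 1.44 and 1.91 CPM against 0.0746 to 11.2 CPM in brain. That difference of -1.12 ± 0.53 had an adjusted p of 0.0487 and was lost with RLE (-0.89), upper quartile scaling (-0.41), DESeq2 (-0.90) and on leaving out sheep 687, 688, 690 or 694 (-1.26 to -0.86).

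Of the priming and active zone members, UNC13A, the neuronal Munc13, was lower in sheep sperm, rat sperm and ovary (-4.55 ± 0.36, -5.65 ± 0.45 and -5.01 ± 0.08). UNC13B, which is expressed more widely and in sperm, differed by 0.11 in sheep and -0.44 in rat sperm, neither called, and was called lower in ovary (-1.50 ± 0.10). RIMS1, the active zone scaffold, held 5.23, 0.242, 2.96, 3.44 and 4.83 CPM in sheep sperm against 9.23 to 390 CPM in brain (-5.37 ± 0.38). In rat sperm it ran from 0 to 1.44 CPM with a median of 0.0671 against 166 to 261 CPM (-9.41 ± 0.68, adjusted p = 6.94e-14). In ovary it ran from 0.247 to 2.87 CPM with a median of 0.829 against 160 to 231 CPM (-7.66 ± 0.28, adjusted p = 1.69e-21). No RIMS1 groups overlapped.

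**Figure D3:**
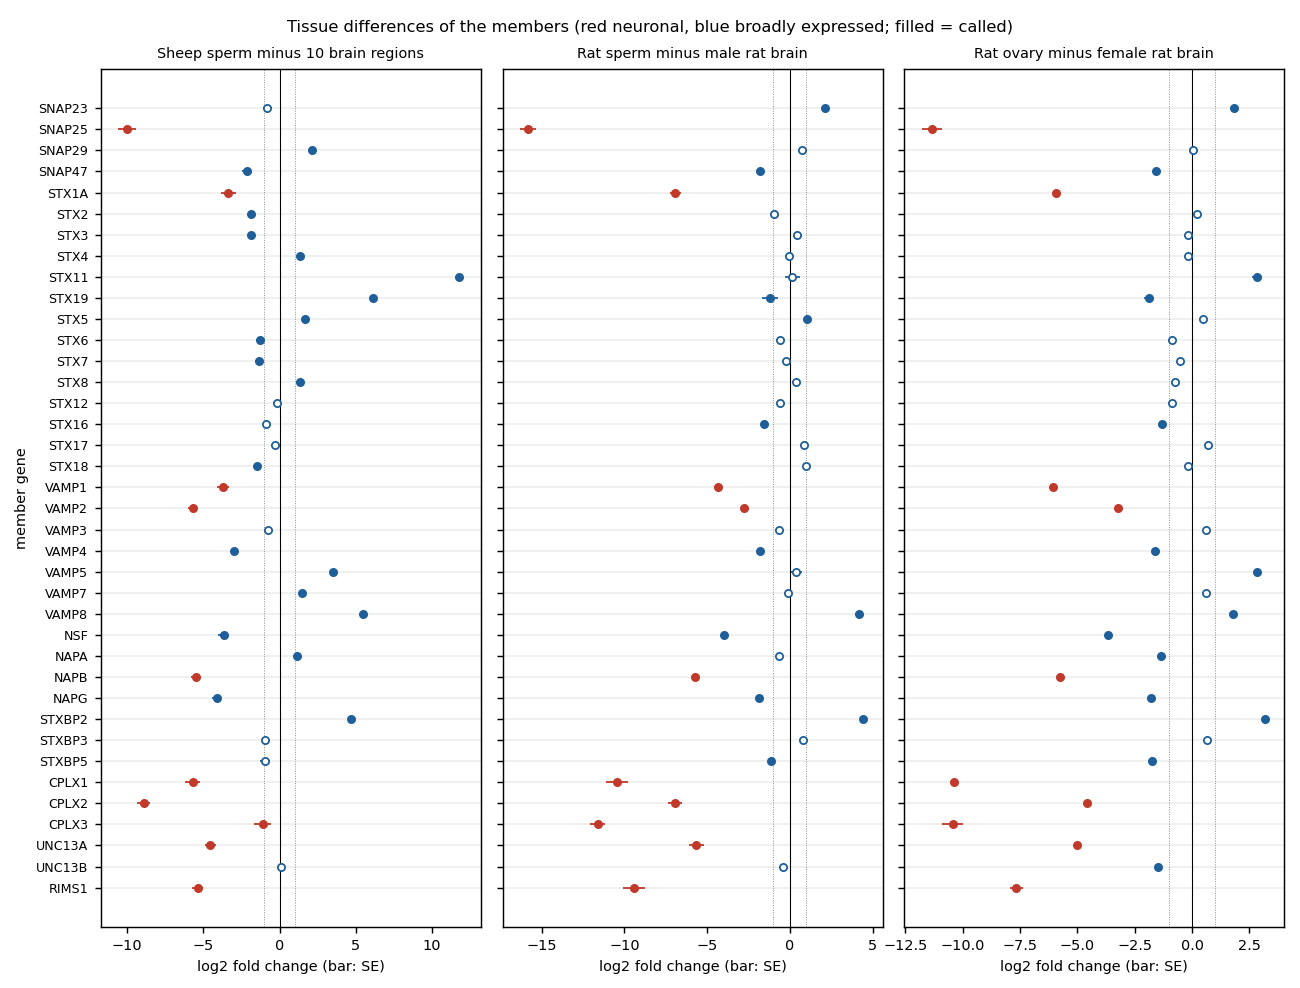
log2 fold change of each member with its SE (bars) in sheep sperm (left), rat sperm (middle) and rat ovary (right) against brain; red marks neuronal and blue broadly expressed members, filled points are called, and dotted lines stand at a log2 fold change of 1 in either direction. All red points lie left of 0, from -15.82 for SNAP25 in rat sperm to -1.12 for CPLX3 in sheep sperm, and the blue points lie on both sides.

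Ratios of paralogs within a library do not depend on scaling and were compared across tissues as descriptions, since no transcript lengths were at hand to compare levels between genes. The NAPB to NAPA count ratio was 1.46 to 2.36 in male rat brain and 0.0126 to 0.102 in rat sperm, 1.54 to 2.27 in female rat brain and 0.0599 to 0.169 in ovary. In sheep it was 0.587 to 5.88 across the brain libraries and 0.0119 to 0.210 in sperm. The VAMP2 to VAMP3 ratio was 32.9 to 44.8 in male rat brain, 4.39 to 22.5 in rat sperm and 2.28 to 3.83 in ovary, against 33.5 to 51.4 in female rat brain. In sheep sperm it was 0.0989 to 0.929, below every sheep brain library, where the lowest was 2.35 in pons. The NAPB to NAPA and VAMP2 to VAMP3 ratios were thus below every brain library of the same sex and species in sheep sperm, rat sperm and ovary. The UNC13A to UNC13B ratio was 5.81 to 8.17 in female rat brain and 0.445 to 0.991 in ovary, with no overlap. In sheep sperm it was 0.0159 to 0.604, which overlaps the pons (0.421 to 1.82), and for rat sperm no range is given because 2 libraries held a 0. The ratio of the neuronal complexins CPLX1 and CPLX2 was 0.0769 to 5.56 in sheep sperm, on 91 and 67 counts in all, and overlapped the brain libraries, which reached 1.03 in pons. In rat it was 0.0041 to 0.0172 in ovary against 0.389 to 0.836 in female brain.

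Within the sheep brain the neuronal members varied most. Every region was compared with the average of the 9 others, and a member was called at an edgeR adjusted p below 0.05 and a fold of at least 1.5. Of 380 member-region pairs, 27 were called higher and 22 lower, where 7.15% and 5.49% of all gene-region pairs were called. The 10 neuronal members gave 20 of the higher and 15 of the lower calls, and each was called in at least 1 region. Of the 28 broadly expressed members, 10 were called in some region and 18 in none, where 62.5% of all genes were called in at least 1 region. The 10 contrasts share their libraries, so the calls are not independent.

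The cerebellum held the least STX1A. Its 5 libraries held 0.776, 0.383, 0.256, 0.505 and 0.511 CPM in sheep 687, 688, 690, 694 and 699, and the lowest library of any other region held 1.33 CPM. No libraries overlapped (log2 fold change -6.52 ± 0.42, adjusted p = 9.71e-18). In contrast SNAP25, the usual partner of STX1A, was highest there, at 2155, 1916, 1839, 1785 and 1879 CPM against at most 1634 in all other libraries (1.14 ± 0.22, adjusted p = 2.29e-05). STX3, which can take the place of syntaxin 1 at ribbon synapses, held 120, 98.1, 91.4, 122 and 104 CPM against 20.1 to 60.6 CPM elsewhere (1.42 ± 0.11, adjusted p = 1.68e-15), also with no overlap. CPLX2 was called higher in cerebellum (0.61), and CPLX3 (-2.16), STXBP2 (-1.12), CPLX1 (-0.96), STX7 (-0.82), STX2 (-0.81) and STX4 (-0.59) lower. The CPLX2 call was lost with upper quartile factors (0.55) and without sheep 699 (0.49), and that of STX4 without the low-count filter (-0.56) and without sheep 687, 690 or 699 (-0.58, -0.53 and -0.57). With 3 higher and 7 lower calls of 38, the members stood beside 17.5% and 25.9% of all genes in this region. The neuron markers of the cerebellum summed to 2646 to 3050 CPM, inside the range of the other regions.

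STX1A followed a steep order across the other regions. Pons held 1.33, 1.41, 4.22, 5.70 and 1.43 CPM (-3.65 ± 0.34), basal ganglia 10.5, 14.8, 8.81, 7.85 and 12.7 CPM (-1.50 ± 0.29), and hippocampus 25.3 to 48.4 CPM, which was not called. The medians of the 6 cortical regions were 68.7 CPM in entorhinal, 89.6 in posterior parietal, 96.7 in visual, 99.3 in motor, 101 in frontal and 109 in prefrontal cortex. Cerebellum, pons, basal ganglia and hippocampus did not overlap with one another. The hippocampus overlapped with entorhinal and, at its edge, motor cortex, and neighbouring cortical regions overlapped with each other. All 6 cortical regions were called higher, by 1.33 ± 0.22 in entorhinal cortex (72.5, 123, 68.7, 20.2 and 36.5 CPM) and by 1.83 to 2.04 in the other 5. STX1A was the member with the largest call in prefrontal cortex (2.04 ± 0.21; 69.8, 81.6, 124, 119 and 109 CPM), frontal cortex (2.04 ± 0.21; 94.9, 101, 127, 101 and 83.2 CPM), visual cortex (2.03 ± 0.21; 152, 74.8, 96.7, 80.6 and 98.0 CPM), motor cortex (1.86 ± 0.21; 48.3, 112, 106, 99.3 and 85.3 CPM) and posterior parietal cortex (1.83 ± 0.21; 87.4, 101, 89.6, 52.4 and 109 CPM).

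**Figure D4:**
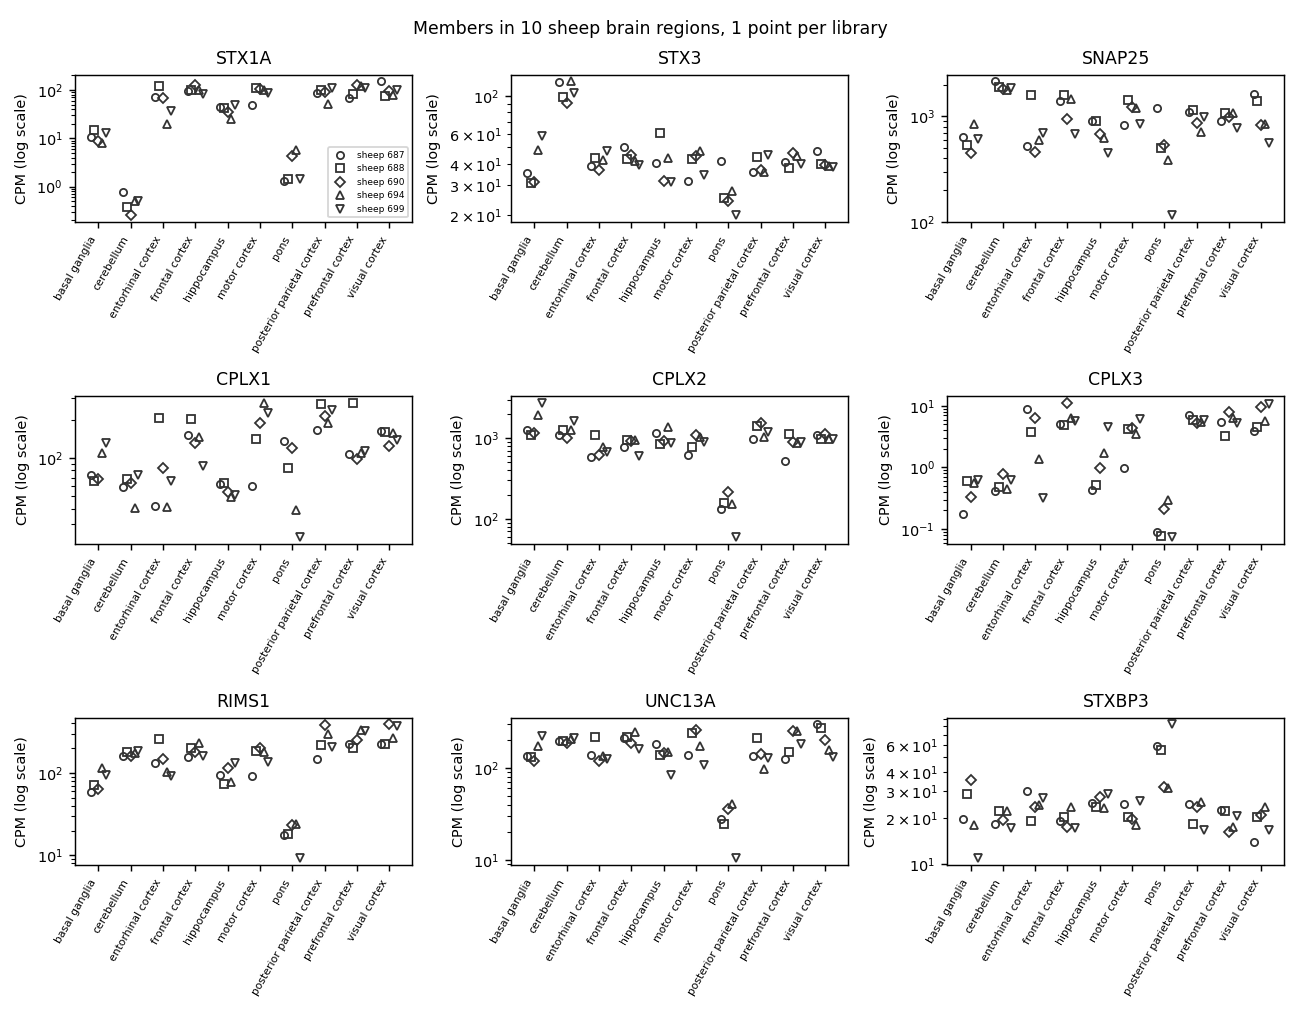
CPM (log scale) of 9 members in the 10 sheep brain regions, 1 symbol per animal. STX1A is lowest in cerebellum and next lowest in pons, STX3 and SNAP25 are highest in cerebellum, CPLX2, RIMS1 and UNC13A are lowest in pons, and STXBP3 is highest in the pons of sheep 699.

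The pons had fewer transcripts of most neuronal members. Of the 10, 8 were called lower and 1 higher, and over all 38 members 11 were lower and 6 higher, beside 14.9% and 16.9% of all genes. CPLX3 fell most, at 0.0897, 0.0766, 0.215, 0.297 and 0.0746 CPM (-4.15 ± 0.58, adjusted p = 9.82e-08), and of the other regions only the basal ganglia of sheep 687, at 0.173 CPM, lay in that range. RIMS1 held 17.9, 18.4, 23.3, 24.4 and 9.23 CPM against 59.6 CPM or more in all other libraries (-3.16 ± 0.24). CPLX2 held 133, 157, 214, 153 and 59.7 CPM against at least 515 CPM (-2.82 ± 0.22), and UNC13A 27.7, 24.5, 35.6, 40.3 and 10.5 CPM against at least 85.0 CPM (-2.61 ± 0.24). VAMP2 was also below all other libraries, at 168 to 256 CPM against at least 312 CPM (-1.30 ± 0.10). NAPB (-0.90), SNAP25 (-0.81), NSF (-0.76) and STX3 (-0.69) were lower with overlap. VAMP1, the VAMP of hindbrain and spinal cord neurons, was the neuronal member called higher, at 213, 178, 265, 103 and 32.8 CPM (0.67 ± 0.25, adjusted p = 0.0267). That call was lost without sheep 687 (0.51) or 690 (0.38).

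Broadly expressed members made up the other rises in pons. STXBP3 held 59.6, 55.9, 31.9, 31.6 and 82.5 CPM against 10.9 to 35.7 CPM elsewhere (1.31 ± 0.14, adjusted p = 3.27e-10), VAMP3 1.26, SNAP23 1.18, STX2 1.13 and STXBP2 0.75 on the log2 scale. The 5 oligodendrocyte genes, none at 0, summed to 15157 to 75199 CPM in pons and 1092 to 27474 CPM in the other regions. By animal their list level was 11.6, 11.4, 10.6, 9.92 and 12.3 in sheep 687, 688, 690, 694 and 699, so the animals with the highest and lowest levels were also those with the highest and lowest STXBP3, VAMP3 and SNAP23. The pons of sheep 699 had the lowest neuron list level of all 50 brain libraries, 5.95, beside 7.27 to 8.14 in the other pons libraries, and the lowest level of the neuronal members, 4.38 beside 5.51 to 5.87. As a sum, the neuron markers of pons ran from 927 to 9007 CPM with a median of 3394. The other regions ran from 1820 to 3978 CPM with a median of 2740, so by sum the pons was not low in neuron markers as a group. The part of these cells in the pons calls was not tested. Without sheep 699 every pons call of a member kept its side of the threshold. SNAP25 and NSF were lost in pons without sheep 688 (-0.67 and -0.72) or without 694 (-0.70 and -0.74).

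Smaller differences marked other regions. In basal ganglia 2 members were called higher and 3 lower, beside 9.44% and 7.96% of all genes. In cortex every called member was higher and neuronal: 1 in entorhinal (beside 3.0% of all genes called higher and 0.0567% lower), 2 in frontal (4.15% and 1.06%) and 1 in motor cortex (2.33% and 0.34%). In posterior parietal cortex 5 members were called (5.64% and 0.865%), in prefrontal cortex 3 (3.28% and 1.25%) and in visual cortex 4 (3.63% and 0.501%). In basal ganglia CPLX2 was called higher, at 1267, 1097, 1173, 1959 and 2753 CPM (1.08 ± 0.16, adjusted p = 6.24e-07), and CPLX3 lower, at 0.173, 0.593, 0.335, 0.566 and 0.633 CPM (-2.41 ± 0.50), with RIMS1 at -0.82 and STXBP2 at 0.85. In hippocampus, where 5.60% and 2.05% of all genes were called higher and lower, CPLX1 was the 1 member called, at 62.6, 63.6, 54.4, 49.1 and 51.5 CPM (-1.07 ± 0.30, adjusted p = 0.0161), and it was lost without sheep 690 (-1.06) or 694 (-1.05). CPLX1 was higher in posterior parietal cortex, at 168, 267, 214, 189 and 240 CPM (1.08 ± 0.25). CPLX3 was higher in frontal (1.83), posterior parietal (1.66), prefrontal (1.60) and visual cortex (1.91), and RIMS1 in posterior parietal (0.98), prefrontal (1.07) and visual cortex (1.24). UNC13A was higher in visual cortex (0.61) and CPLX2 in posterior parietal cortex (0.61), both close to the 1.5-fold limit. UNC13A was lost with upper quartile factors (0.57) and without sheep 687, 688 or 690 (0.44, 0.53 and 0.64), and CPLX2 without sheep 688 or 690 (0.58 and 0.53). No broadly expressed member was called in any cortical region or hippocampus, where 19.3% of all genes were called in at least 1 of these 7 regions.

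Rat sperm libraries differed among themselves in ways that moved with acrosome genes. The 11 acrosome genes gave list levels of 3.68, 4.58, 6.10 and 6.74 in the libraries of rats 13, 3, 7 and 14, and 0.99 to 1.91 in the other 11. Stx18, of the ER, held 54.1, 62.6, 89.4 and 111 CPM in those 4 and 27.5 to 49.7 CPM in the other 11, so it did not overlap between them. Its difference from brain, 1.00 ± 0.17, fell just short of the fold threshold and passed it without the libraries of sperm samples 16 and 17 (1.09). Rims1, at 0.366, 0.269, 1.36 and 1.44 CPM against at most 0.0982, did not overlap either. With overlap, Cplx1 was 0.231, 0.908, 0.623 and 1.89 CPM against at most 0.347, Vamp4 was 20.2, 26.3, 33.8 and 40.3 against at most 25.5, and Stx2 was 6.53, 14.0, 14.2 and 17.6 against at most 11.4. Others were lowest in the libraries of rats 7 and 14: Vamp2 held 50.8 and 38.7 CPM against 99.8 CPM or more in the other 13, Stx4 17.6 and 12.8 against at least 28.7, Stx3 20.0 and 11.7 against at least 29.0, and Unc13b 5.42 and 7.53 against at least 8.41. Vamp8 was lowest in rat 14, at 46.3 CPM, but held 128 CPM in rat 7, inside the range of the rest, which began at 104 CPM. Snap23 held 41.3 and 36.3 CPM in rats 7 and 14, also inside the range of the rest, which began at 21.0 CPM. These libraries were told apart by a measured level, so no test was made between them. The share of all genes that did not overlap between these 4 libraries and the other 11 was not computed. The separation of Stx18 and Rims1 can therefore not be read as particular to the members.

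**Figure D5:**
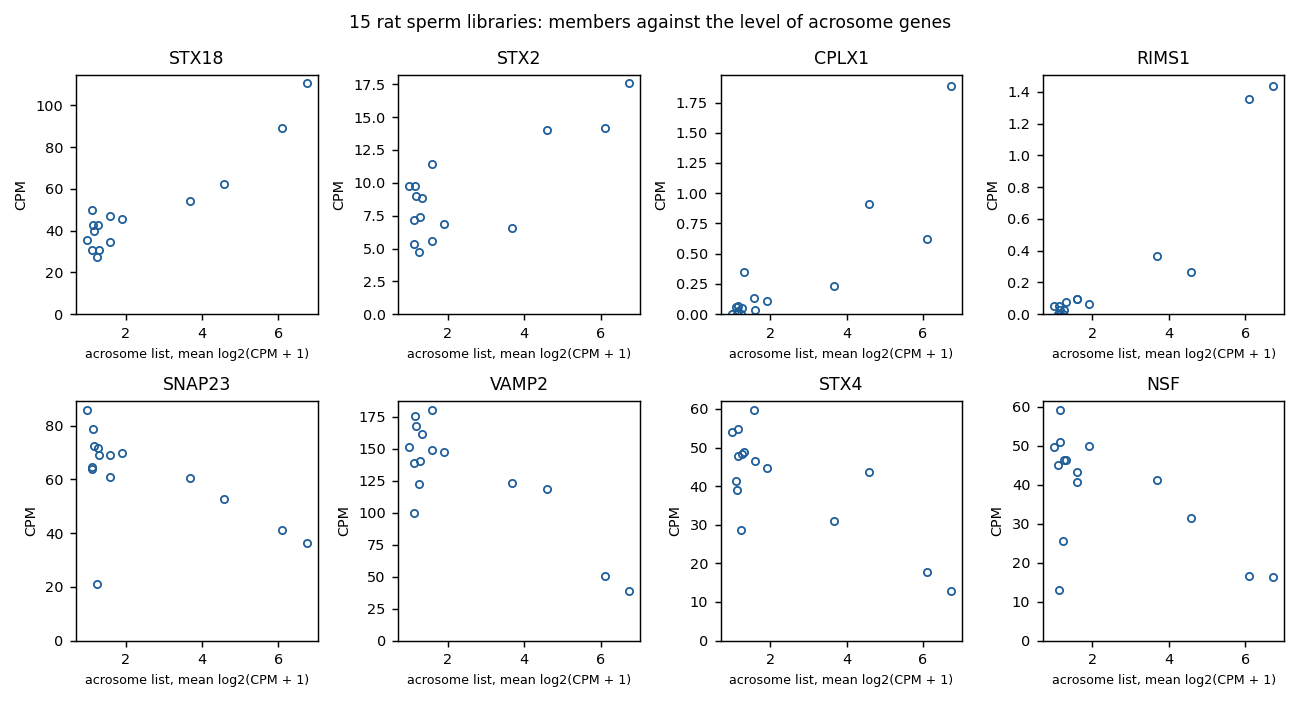
CPM of 8 members (one panel each) against the mean log2(CPM + 1) of 11 acrosome genes in the 15 rat sperm libraries, 1 point per library. The 4 libraries at the right, with acrosome levels of 3.68 to 6.74, hold the highest Stx18 values (54.1 to 111 CPM), and the 2 rightmost hold the lowest Vamp2 values (38.7 and 50.8 CPM).

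Ovary and rat sperm were also set directly against each other, a comparison in which sex and tissue cannot be told apart. Of 37 members tested (CPLX3 had 7 counts in ovary and 1 in sperm and was not tested), 8 were called higher and 6 lower in ovary, beside 27.9% and 22.9% of all genes. CPLX2 was higher in ovary, at 32.6 to 43.5 CPM against 0 to 17.0 CPM (2.38 ± 0.35, adjusted p = 6.09e-07), VAMP5 at 11.0 to 20.2 against 0 to 8.23 CPM (2.33 ± 0.36), and VAMP3 at 26.6 to 45.4 CPM with a median of 31.8 against 4.49 to 23.2 CPM with a median of 15.1 (1.29 ± 0.15). None of these 3 overlapped. STX2 was higher by 1.04 ± 0.18, a call lost under every alternative run for this comparison (0.95 to 0.99). At low levels SNAP25 (0.175 to 3.06 against 0 to 0.207 CPM), STX11 (3.09), RIMS1 (1.74) and STX1A (1.05) were also higher in ovary. RIMS1 was lost with RLE (1.54), and STX1A without the low-count filter (0.94) and without sperm libraries 16 and 17 (0.86).

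Rat sperm was higher for VAMP8 (ovary minus sperm -2.46 ± 0.16, adjusted p = 5.72e-14), whose ovary libraries all lay below all sperm libraries. It was also higher for VAMP1, at 2.16 to 27.3 CPM with a median of 15.0 against 3.71 to 6.96 CPM with a median of 4.88 (-1.57 ± 0.22), for STXBP2 (-1.30 ± 0.12), and for STX18, at 27.5 to 111 CPM with a median of 42.9 against 20.1 to 29.3 CPM with a median of 23.2 (-1.09 ± 0.19). UNC13B (-1.08) and STX8 (-1.01) completed the list. The groups did not overlap for 5 members, STX11, VAMP3, VAMP5, VAMP8 and CPLX2, beside 23.7% of all genes tested.

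The difference between sperm and brain was larger or smaller in sheep than in rat for many members, with species and preparation of the libraries confounded by the kits named above. The species by tissue term, sheep minus rat, was called above 0 for 13 members and below 0 for 11, beside 23.9% and 38.4% of all 15172 genes tested. The median of all genes was -0.69, and scaling by RLE moved that median by 0.92. The counts of members then became 23 above and 5 below with RLE, 19 and 6 with upper quartile factors, and 22 and 5 with DESeq2, so directions near 0 depend on scaling. STX11 (11.68 ± 1.02, adjusted p = 1.01e-12) and STX19 (7.20 ± 1.03, adjusted p = 1.08e-07) were called above 0 under all 3, as were SNAP25 (5.75) and CPLX3 (10.22), and SNAP23 (-3.05 ± 0.44, adjusted p = 1.26e-07), VAMP2 (-3.00), STX18 (-2.52), STX3 (-2.38) and NAPG (-2.26) were called below 0. STX2 went from -1.0 to 0.01 with RLE, and CPLX1 from 4.61 to 0.21, not called, with DESeq2. STXBP2, at 0.24 ± 0.35, and NAPB, at 0.16 ± 0.36, were not called, and neither p shows that the species were alike.

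Genes that work beside the members were counted in the same fits. The 16 presynaptic release partners, scaffolds and Rab effectors of the active zone, followed the neuronal members: 13 were called lower and 1 higher with sheep sperm, and all 16 were lower with rat sperm and with ovary (medians -4.82, -6.06 and -4.84). RIMS4 (-9.04 in sheep sperm, -9.63 in rat sperm) was an example, and RIMS2, at 203 ± 141 CPM in sheep sperm against 57.7 ± 22.0 (SD, over 5 libraries and over 50 libraries of the same 5 sheep), was the exception (1.91 ± 0.21). The 10 other SNAREs, mostly of the ER and Golgi, gave 0 higher and 3 lower calls for sheep sperm, 3 and 0 for rat sperm and 2 and 1 for ovary. In that list USE1, an ER SNARE that works with STX18, was higher in rat sperm (1.79 ± 0.16) and BET1 higher in ovary (1.47 ± 0.11) and lower in sheep sperm (-2.93 ± 0.28).

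The 10 Sec1/Munc18 and HOPS tethering genes gave 1 and 6 calls for sheep sperm, 1 and 1 for rat sperm and 0 and 1 for ovary. SCFD1, the Munc18-type partner of STX5, was the higher one in sheep sperm (1.27 ± 0.18) and in rat sperm (1.24 ± 0.13). The 9 exocyst subunits, which tether vesicles to the surface, gave 1 and 5, 1 and 1, and 0 and 2 calls, with EXOC6 higher in sheep (1.83) and rat sperm (1.03) and lower in ovary (-1.25). Of the secretory Rabs, 3 of 6 tested in sheep sperm were called higher and 1 lower, 1 of 7 higher and 2 lower in rat sperm, and 1 of 7 higher and 1 lower in ovary. RAB27B was higher in sheep sperm (1.39 ± 0.18) and lower in rat sperm (-4.98 ± 0.41) and ovary (-2.34 ± 0.13), and RAB27A was higher in ovary (1.19 ± 0.14). In sheep pons 13 of the 16 presynaptic partners were lower, with a median of -1.50, and none of the other SNAREs, exocyst or HOPS genes was called.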

How the data were processed

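RNA of the 113 libraries was sequenced as paired reads of 150 bases. The deposited tables hold raw counts of reads per gene made by the authors, given by tissue for rat and by animal for sheep. They were joined here into 1 table per species. The submitters' processing notes name Trimmomatic 0.39, STAR 2.7.5a and Rsubread 2.20.0, and the assemblies ARS-UI_Ramb v3.0 and GRCr8. The kits keep strand, but no source used here states the strand setting or how reads matching several genes were handled, so members that overlap another gene or have close paralogs are uncertain. In rat, 14 of 38 members overlap another annotated gene.

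The main test was the quasi-likelihood F test of edgeR 4.0.16 (R 4.3.3, TMM factors, filterByExpr, prior count 0.125), with Benjamini-Hochberg adjustment over all genes tested. Sheep sperm was compared with the average of the 10 regions, rat sperm against male brain, ovary against female brain and against sperm, each region against the average of the 9 others, and the species by tissue term was fitted over 15703 shared symbols before filtering. The SE is the log2 fold change divided by the square root of F; it rests on a dispersion shared by all groups and can understate the spread of sheep sperm. Per-library values were written for the 4 called members per direction with the largest change and at least 10 CPM in the higher group, and per region for the member with the largest call; other members are given more briefly. From the other gene lists, at most 2 genes per direction were named.

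Members and lists were chosen with earlier results of these data known. Alternatives were RLE and upper quartile factors, no filter, DESeq2 1.42.0, a replicate block, summed regions, and leaving out libraries. Sperm or ovary and brain with the same number come from the same animal by the labels; correlations of their deviations from the group means had medians of 0.05 over 5 sheep, 0.02 over 15 male and 0.01 over 14 female rats. Intervals cover counting error only. The tissue comparisons, but not the region or species fits, were also run on simulated counts with a common dispersion. Those counts held no unequal spread and no shift of composition between tissues, so the check does not cover these limits of sheep sperm. Promoter windows and gene positions come from RefSeq on GRCr8, where 38599 of 38675 rat symbols matched.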

Additional observations from a re-analysis of the deposited data

Results flagged for a closer look

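In 25 of 418 groups of 5 sheep libraries, 1 library stood far from the other 4 for a member (gap to the nearest over the group's range above 0.71); chance flags about 1 in 20 groups. In sperm, sheep 688 stood high for STX5 (79.7 CPM), STX7 (76.3), STX12 (193), NSF (60.8), NAPA (552) and STXBP5 (35.0), sheep 694 for STX11 (1880), and sheep 687 for CPLX2 (5.23). Entorhinal cortex of sheep 688 stood high for SNAP25 (1581 CPM), NAPA (129), CPLX1 (206) and UNC13A (218). Others on the high side were STX17 in the entorhinal cortex of sheep 694 (18.0 CPM) and the frontal cortex of sheep 699 (14.0), CPLX3 in the frontal cortex of sheep 690 (11.2), VAMP2 in the basal ganglia of sheep 699 (545), SNAP47 in the cerebellum of sheep 687 (31.4), VAMP3 in the motor cortex of sheep 699 (50.8), VAMP4 in the posterior parietal cortex of sheep 687 (36.1), STX19 in the prefrontal cortex of sheep 699 (0.611), CPLX1 in the prefrontal cortex of sheep 688 (274) and STX3 in the visual cortex of sheep 687 (47.8). On the low side were STX6 in the hippocampus of sheep 688 (59.0 CPM), NAPG in the pons of sheep 699 (43.8) and VAMP2 in the prefrontal cortex of sheep 687 (506).

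In the main fit the difference between sperm and brain differed between sheep and rat for 24 members by the species by tissue term (log2, sheep minus rat). It was above 0 for STX11 (11.68), CPLX3 (10.22), STX19 (7.20), SNAP25 (5.75), CPLX1 (4.61), RIMS1 (3.70), VAMP5 (3.15), STX1A (2.48), NAPA (1.75), VAMP7 (1.58), SNAP29 (1.37), STX4 (1.32) and VAMP8 (1.29). It was below 0 for SNAP23 (-3.05), VAMP2 (-3.00), STX18 (-2.52), STX3 (-2.38), NAPG (-2.26), CPLX2 (-2.13), STXBP3 (-1.83), STX7 (-1.22), STX17 (-1.19), VAMP4 (-1.19) and STX2 (-1.0). Leaving out sheep 687 ended the calls of STX1A (1.45), STX4 (0.31) and STX7 (-0.92), and leaving out 688 those of VAMP8 and NAPA (0.91 in both). STX2, STX17 and VAMP4 were each lost without 1 or more of the sheep (-0.68 to -0.96, -0.90 to -0.99, and -0.99 to -1.0). With RLE the calls of CPLX2 (-0.95), STXBP3 (-0.88), STX7 (-0.38), STX17 (-0.38), VAMP4 (-0.28) and STX2 (0.01) ended. DESeq2 ended the same calls and that of CPLX1 (0.21), and upper quartile factors ended the same calls except STXBP3. In turn, 10 members not called in the main fit were called with RLE, and 10 with DESeq2. The species differed in kits too, and the part of the kits cannot be told apart from species.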

How the results depend on the processing

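In the ovary comparison with female brain no member changed its call under the 6 alternatives run. With the replicate block, members called were 10 higher and 21 lower for sheep sperm, 4 and 18 for rat sperm, 5 and 19 for ovary, and 29 and 24 member-region pairs. The block ended the call of NAPA in sheep sperm (0.95) and added STXBP3 (-1.0), STXBP5 (-1.07) and, in rat sperm, STX2 (-1.03); without the low-count filter NAPA was also lost (0.95). Leaving out 1 sheep gave 9 to 11 members higher and 18 to 23 lower in sheep sperm, and 11 to 14 above and 8 to 11 below 0 for the species term. With the regions of each sheep summed, 8 members were higher and 20 lower in sheep sperm. With upper quartile factors STX6, STX7, STX18 and CPLX3 were lost in sheep sperm. The species counts of 13 above and 11 below 0 became 23 and 5 with RLE, 19 and 6 with upper quartile factors and 22 and 5 with DESeq2, and STX2 turned from -1.0 to 0.01 with RLE. Depth limits the low members: CPLX3 had 1 count over all rat sperm.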
